A study of Homo sapiens with 5 samples.

Results

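The human genome carries a large family of C2H2 zinc finger genes with ZNF symbols, and the largest share of them stands in dense clusters on chromosome 19. The genes described here are those that the deposited table places in the zf-C2H2 family of transcription factors, that have a gene name starting with ZNF and that lie on chromosome 19. This rule gave 233 of the 33857 listed genes, and it used no measured value. They make up 54.1% of the 431 listed genes of the family with a ZNF name, 232 of them are annotated as protein-coding, and ZNF812P is a pseudogene. Poly(A+) RNA was sequenced from H9, a line of human embryonic stem cells, grown in mTeSR medium. The methods state that transfected cultures were selected on puromycin before clones were picked, and name no other treatment of these samples. The mock control group holds 2 samples, from clones that received the empty CRISPR/Cas9 vector. The CFIm25-m group holds 3 samples, each from a single-cell clone made with a different gRNA against NUDT21, the gene of the mRNA 3' processing factor CFIm25. The labels call these clones KO, but the methods describe a protein with a small N-terminal deletion at a reduced level, so the clones are knockdown mutants and not nulls. Each sample is 1 clone, so the tests measure only the spread between these clones.

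C2H2 zinc fingers are small zinc-held folds that read DNA, and a protein with many of them in a row can bind a long, specific sequence. Most chromosome 19 members also carry a KRAB domain, which recruits the co-repressor TRIM28 and, through it, the histone H3K9 methyltransferase SETDB1, heterochromatin proteins and a deacetylase complex. Many of these proteins bind transposable elements, which they keep silent in embryonic stem cells, and the family grew by tandem gene duplication. Neighbouring members are therefore similar in sequence, and how reads that match several of them were counted is not given in the sources used here, so values of close copies are less certain than those of isolated genes.

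Libraries held between 18754108 and 23372391 reads, and NUDT21 fell from 6503 and 6398 normalized counts in the mock controls to 4035, 3281 and 3400 in the clones. This is a log2 fold change of -0.86 (limma-trend, adjusted p = 0.00431 by Benjamini-Hochberg over all tested genes), and the adjusted p was 0.0618 without mock control 1, 0.0557 without mock control 2 and 0.106 without the mean-variance trend of limma. A normalized count is the number of reads on a gene divided by a size factor of the sample. The stem cell markers POU5F1, SOX2, LIN28A and DNMT3B were at 7227 or more in every sample and NANOG at 852 or more, while SOX17, GATA4, TBXT, PAX6 and SOX1 were at 20.3 or less. Of the genes taken as fibroblast markers, COL3A1 was at 9.65 or less and COL1A1 and THY1 were between 5620 and 8705 in every sample. These levels alone do not show which cells made the RNA. COL1A1, LIN28A, DNMT3B and NANOG had lower values in each clone than in both mock controls, with log2 fold changes of -0.42, -0.41, -0.33 and -0.31 and adjusted p of 0.0828, 0.292, 0.293 and 0.360 in limma-trend. SOX1, at 20.3 or less, was also lower in each clone, at -0.99 (limma-trend, adjusted p = 0.376). POU5F1 went the other way, with each clone above both mock controls, at 0.21 (limma-trend, adjusted p = 0.456). SOX2 at -0.21 and THY1 at 0.12 had overlapping groups, with adjusted p of 0.442 and 0.702 in limma-trend. None of these markers passed the test, and their part in the results below was not tested. In such bulk samples, fewer cells of a type and less RNA per cell cannot be told apart.

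Of the 225 tested members, 3 passed the test (1.33%, with 1.88% of all tested genes called), and the sequences upstream of their RefSeq start sites are shown to let their promoters be compared. Each is the 250 bases before the RefSeq start in GRCh38.p14, on the minus strand of chromosome 19, written 5′ to 3′ with CpG dinucleotides in capitals. The stretches are chr19:9498617-9498866 for ZNF560, chr19:56477346-56477595 for ZNF667 and chr19:56671758-56672007 for ZNF835.
ZNF560: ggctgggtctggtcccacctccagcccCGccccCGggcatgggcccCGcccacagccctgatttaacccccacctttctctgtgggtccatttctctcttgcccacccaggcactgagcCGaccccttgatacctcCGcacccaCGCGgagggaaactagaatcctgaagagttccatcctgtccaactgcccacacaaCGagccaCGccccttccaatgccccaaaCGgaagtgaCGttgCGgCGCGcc
ZNF667: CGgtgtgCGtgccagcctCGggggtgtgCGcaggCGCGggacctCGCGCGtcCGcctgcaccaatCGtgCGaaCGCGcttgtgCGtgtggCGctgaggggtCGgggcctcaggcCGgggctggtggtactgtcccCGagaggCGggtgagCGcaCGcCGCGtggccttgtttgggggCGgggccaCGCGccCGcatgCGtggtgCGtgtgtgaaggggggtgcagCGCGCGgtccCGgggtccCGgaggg
ZNF835: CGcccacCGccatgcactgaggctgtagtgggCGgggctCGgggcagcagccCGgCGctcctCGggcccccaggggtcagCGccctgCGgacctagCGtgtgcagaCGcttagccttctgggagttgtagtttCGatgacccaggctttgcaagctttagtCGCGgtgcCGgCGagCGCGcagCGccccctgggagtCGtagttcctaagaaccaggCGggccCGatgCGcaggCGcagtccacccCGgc
These 250 bases held 14 CpG in ZNF560, 35 in ZNF667 and 25 in ZNF835. The RefSeq starts of ZNF560 and ZNF835 lay 9 and 26 bases from the deposited gene starts, and that of ZNF667 lay 720 bases away. The stretch printed for ZNF667 thus lies inside its deposited gene body, and also inside that of ZNF667-AS1 on the other strand, so reads from it could be counted on these genes. Of the 233 members, 207 had a RefSeq promoter by symbol and 174 had one within 1000 bases of the deposited start.

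Over those 174 members, the window of 300 bases around the start held a median of 20 CpG, with a range of 6 to 42. The median was 25 for 11415 other protein-coding genes matched in the same way and 14 for all 35116 promoters in the RefSeq table. Motifs of known promoter factors were looked for on both strands. The ETS motif CCGGAAGT was in 42 of the 174 member windows, or 24.1%, against 7.05% of the other protein-coding genes and 4.14% of all promoters. The core of the motif of the activator ZNF143, TACANTTCC, was in 19 windows, or 10.9%, against 1.87% and 1.58%. The NRF1 motif GCATGCGC was in 10, or 5.75%, against 4.79% and 3.05%. The core promoter element TATAAA was in 3, or 1.72%, against 7.23% and 11.5%, and the YY1 motif AAGATGGCG was in 6, or 3.45%, against 3.14% and 1.75%. The ETS and ZNF143 motifs share the letters TTCC on 1 strand, and 6 members held both. None of the 5 motifs was in the windows of ZNF560, ZNF667 or ZNF835, which says only that these letters are not there. Near matches were not counted in any window. The printed stretches of all 3 genes hold near matches, of which these are examples. The stretch of ZNF560 holds aCGgaagt, 1 base from the ETS motif, and that of ZNF667 holds gcatgCGt, 1 base from the NRF1 motif. The stretch printed for ZNF835 holds ggagttgta, which differs by 1 base from the reverse complement of the ZNF143 motif searched. Because members are duplicates of each other, their windows are not independent, and these shares are a description of the promoters alone.

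Stretches of 40 bases around the ZNF143 motif are shown for 4 of the 19 members that hold it, as examples of the sequence beside it. Other holders with values below, such as ZNF350, ZNF568 and ZNF682, are not shown. The 4 therefore do not show how alike these stretches are in general. The motif is in capitals and the strand is that of the gene. ZNF470 carries it as spelled above, and ZNF146, ZNF260 and ZNF790 carry its reverse complement. The stretches are chr19:36214959-36214998 on the plus strand for ZNF146, chr19:36528368-36528407 on the minus strand for ZNF260, chr19:56567415-56567454 on the plus strand for ZNF470 and chr19:36850776-36850815 on the minus strand for ZNF790.
ZNF146: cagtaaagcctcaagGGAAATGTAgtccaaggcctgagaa
ZNF260: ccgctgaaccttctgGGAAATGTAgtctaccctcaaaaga
ZNF470: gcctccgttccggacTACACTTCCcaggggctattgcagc
ZNF790: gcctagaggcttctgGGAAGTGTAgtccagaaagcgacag
The match begins 132 bases before the RefSeq start in ZNF146 and 8 bases before it in ZNF790.

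Nearly every member was expressed in these stem cells, mostly at a moderate level. The mean normalized count over the 5 samples was at least 1000 for 15 members, between 100 and 1000 for 164 and under 100 for 54, with a median of 244. Together the members took 0.393% and 0.386% of reads in the mock controls, against 0.430%, 0.382% and 0.474% in CFIm25-m clones 1, 2 and 3. Clones 1 and 3 thus lay above both mock controls and clone 2 below them. Testing needed a value of 10 or more in 2 or more samples, and 225 members passed. The 8 that did not were ZNF556, ZNF177, ZNF812P, ZNF492, ZNF726, ZNF536, ZNF781 and ZNF541, none of which exceeded 12.03 in any sample. No member was below 10 in 1 sample and at 100 or more in another, a pattern found in 0.0683% of the 17558 listed protein-coding genes.

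With limma-trend and an adjusted p below 0.05, 2 members were higher and 1 was lower in CFIm25-m. Over all 19232 tested genes, 0.941% were called higher and 0.936% lower. The lower member, ZNF560, passed the filter only through the mock controls, where it was high. At an unadjusted p below 0.05, 18 members (8.0%) were higher and 2 (0.889%) were lower, against 7.99% and 7.15% of all tested genes. All clones lay above both mock controls for 43 members (19.1%), close to the 17.0% of all tested genes. All clones lay below both for 16 members (7.11%), against 19.8% of all tested genes. A log2 fold change beyond 0.5 in size was found for 14 members, or 6.22%, against 16.0% of all tested genes, and 173 members (76.9%) were within 0.25 of 0, against 63.1%. The 95% interval of the fold change lay within 1 log2 unit on either side of 0 for 204 members, so for these a 2-fold change in either direction lay outside the interval.

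**Figure D1:**
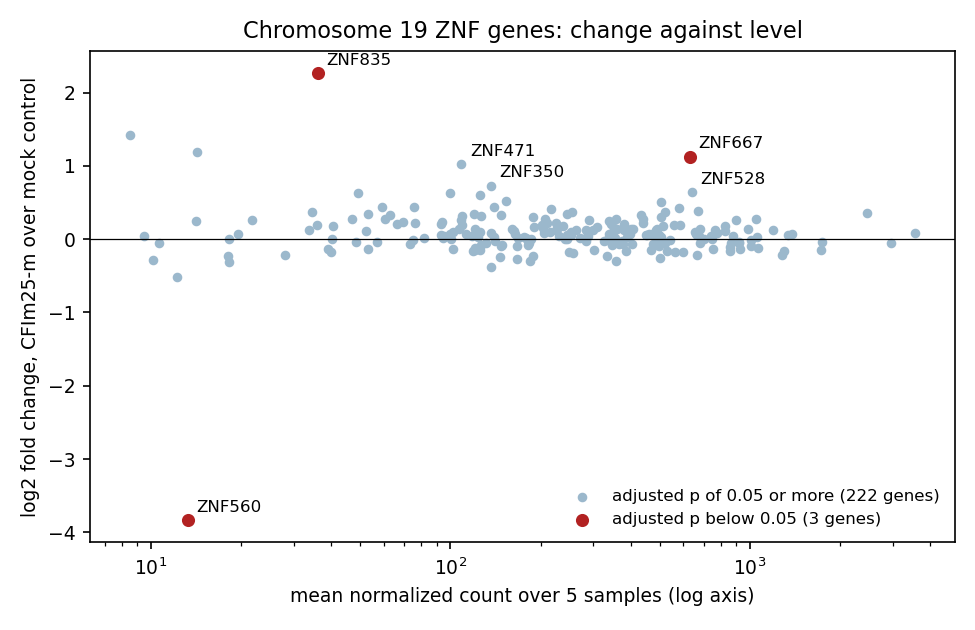
Each point is 1 of the 225 tested chromosome 19 ZNF genes, with its mean normalized count over the 5 samples (log axis) against its log2 fold change on the log2(normalized count + 1) scale. ZNF667 and ZNF835 stand above and ZNF560 below a band in which 173 members lie within 0.25 of 0, and points at the left, with few reads, scatter more widely.

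ZNF667 is a KRAB zinc finger gene known as a transcriptional repressor. ZNF667 (ENSG00000198046) spans 56439325 to 56478065 of chromosome 19 in GRCh38, on the minus strand. The gene had 362 and 371 normalized counts in the mock controls, against 761, 710 and 946 in clones 1, 2 and 3. Every clone was above both mock controls by a wide margin, and the mock controls were nearly equal. The mean rose from 366 ± 6.13 (SD, n = 2) to 806 ± 124 (SD, n = 3), 2.20-fold higher. The log2 fold change was 1.12 with a standard error of 0.14 (limma-trend, adjusted p = 0.00403), and the call was kept when any 1 sample was left out. Without the mean-variance trend the adjusted p was 0.0915.

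ZNF835 (ENSG00000127903), a C2H2 zinc finger gene, lies on the minus strand from 56661981 to 56671783. It had 8.07 and 12.5 normalized counts in the mock controls, against 41.1, 53.1 and 65.4 in clones 1, 2 and 3. The groups did not overlap, and the gene was at a low level in both. The mean rose from 10.3 ± 3.17 (SD, n = 2) to 53.2 ± 12.2 (SD, n = 3), and the log2 fold change was 2.27 with a standard error of 0.34 (limma-trend, adjusted p = 0.0103). The adjusted p was 0.0559 without CFIm25-m clone 2, 0.0912 without mock control 1 and 0.0699 without the mean-variance trend.

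ZNF560 (ENSG00000198028), a KRAB zinc finger gene, lies on the minus strand from 9466507 to 9498607. It was the 1 member that fell, from 39.2 and 22.2 normalized counts in the mock controls to 4.01, 0 and 0.962 in clones 1, 2 and 3. Behind these values stood 34 and 23 reads in the mock controls against 4, 0 and 1 in the clones, so the gene was near or below the limit of 3 reads in every clone. The log2 fold change was -3.83 (95% interval -5.43 to -2.23, adjusted p = 0.0285, limma-trend), and it was -4.33 with a pseudocount of 0.5 and -2.43 with a pseudocount of 5. The adjusted p was 0.0660 without CFIm25-m clone 2 and 0.132 without the mean-variance trend. Every clone was below 10, so ZNF560 passed the filter only because it was high in the mock controls. ZNF560 was below the filter without either mock control. Its expressed neighbours did not pass the test: ZNF266 had a log2 fold change of 0.19 (with adjusted p = 0.490) and ZNF426 of -0.05 (limma-trend, adjusted p = 0.835).

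Both members that rose lie near the end of the long arm of chromosome 19, in a stretch of 296 kb. The stretch from ZNF582 to ZNF835 (56375846 to 56671783), chosen for a closer look after these values were seen, holds 18 listed genes, of which 14 were tested and 7 are members. The third call in it was ZNF667-AS1, an RNA read from the strand opposite ZNF667. ZNF667-AS1 had 187 and 190 normalized counts in the mock controls, against 379, 366 and 392 in the clones. Its log2 fold change was 1.00 with a standard error of 0.13 (limma-trend, adjusted p = 0.00465). The deposited gene bodies of ZNF667 and ZNF667-AS1 overlap, and since a strand setting is not given, reads from the shared part cannot be told apart. The other members of the stretch did not pass: ZNF471 had a log2 fold change of 1.02, ZNF470 of 0.33, ZNF583 of 0.11, ZNF582 of 0.04 and ZNF71 of -0.09. ZFP28, a KRAB zinc finger gene without a ZNF name, stands between ZNF471 and ZNF470 and had 0.05. The other tested genes of the stretch did not pass: AC004696.1 had 1.24 (limma-trend, adjusted p = 0.203), with all clones above both mock controls, SMIM17 had 0.66, AC005498.3 had 0.28, ZNF582-AS1 had 0.21 and AC004696.2 had 0.17. In all, 13 of the 14 tested genes were above 0. Over all tested genes, 48.2% were above 0 and 1.88% were called. The stretch was drawn around its called genes and ends at one of them, so its counts are no measure of a regional change.

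**Figure D2:**
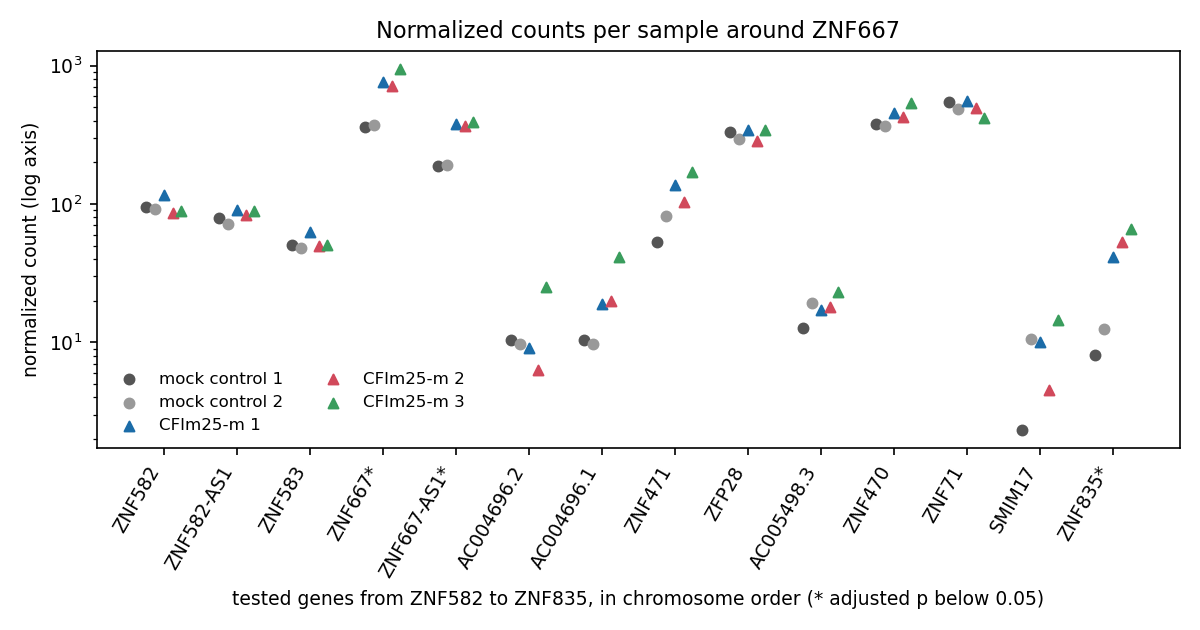
Normalized counts (log axis) of the 14 tested genes from ZNF582 to ZNF835 in chromosome order, with 1 point per sample, circles for mock control and triangles for CFIm25-m, and a star by the name of genes with an adjusted p below 0.05. For ZNF667, ZNF667-AS1 and ZNF835 the 3 triangles lie above both circles with a gap, while for ZNF582, ZNF583, ZFP28 and ZNF71 triangles and circles mix.

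Other members with higher values did not pass the test over all genes, and those with a mean of at least 20 are given first. ZNF471 had 53.0 and 81.1 normalized counts in the mock controls, against 137, 104 and 169 in the clones. Its log2 fold change of 1.02 had a standard error of 0.26 (limma-trend, adjusted p = 0.0958). ZNF350, also called ZBRK1 and known as a repressor that binds BRCA1, had 104 and 90.7 in the mock controls against 181, 136 and 170, with a log2 fold change of 0.73 (with adjusted p = 0.101). ZNF528 had 497 and 453 against 711, 596 and 948, with a log2 fold change of 0.64 (limma-trend, adjusted p = 0.113). In all of these the clones lay above both mock controls, and clone 2 was the lowest clone in each. The DESeq2 Wald test on recovered reads called ZNF471 (adjusted p = 0.0320) and ZNF528 (adjusted p = 0.0230) as higher. ZNF132 and ZNF846 had log2 fold changes of 0.63 each, with adjusted p of 0.326 and 0.232 in limma-trend. ZNF491, a member with fewer reads, had a larger log2 fold change of 1.19 and did not pass either.

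On the lower side, changes were small among the uncalled members with a mean of at least 20. Among members with fewer reads, ZNF540 had a log2 fold change of -0.51 and ZNF20 of -0.31, with adjusted p of 0.654 and 0.722 in limma-trend. ZNF296, which is known to help the reprogramming of somatic cells to pluripotency in mouse, had 158 and 158 normalized counts in the mock controls, against 131, 117 and 116 in the clones. Its log2 fold change was -0.38 with a standard error of 0.17 (limma-trend, adjusted p = 0.326). ZNF526 had 554 and 560 against 503, 484 and 412, with a log2 fold change of -0.26 (with adjusted p = 0.358). In both genes every clone was below both mock controls. ZNF724, ZNF682 and ZNF14 had log2 fold changes of -0.30, -0.29 and -0.27, with adjusted p between 0.398 and 0.498 in limma-trend.

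Per kilobase of gene length, the members with the highest normalized count in mock control were ZNF146 with 731, ZNF581 with 562, ZNF121 with 475, and ZNF134 and ZNF787 with 357 each. ZNF146, also called OZF, consists of zinc fingers without a KRAB domain. It had 3042 and 3022 normalized counts in the mock controls, against 3079, 2601 and 3076 in the clones. Its log2 fold change was -0.06 with a standard error of 0.10 (limma-trend, adjusted p = 0.821), and the groups overlapped. ZNF121 had 3479 and 3412 against 3368, 3372 and 4229, so that clone 3 alone lay above the mock controls, and its log2 fold change was 0.08 (adjusted p = 0.788). Among members with a mean of at least 1000, those nearest to 0 were ZNF260 at -0.01, ZNF444 at 0.03 and ZNF714 at -0.04 on the log2 scale, and the sign of ZNF260 changed with the scaling.

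Some members have known binding targets, such as transposable elements, or are themselves imprinted. A list of 10 such members was drawn up with earlier results of these data known. ZNF91 and ZNF611 bind SVA elements, ZNF93, ZNF649 and ZNF765 bind LINE-1 elements, ZNF417 and ZNF587 bind the HERV-K provirus, and ZNF808 binds MER11 elements. ZNF274 binds the 3' ends of ZNF genes themselves, and ZNF331 is an imprinted gene. None of the 10 passed limma-trend, none had an unadjusted p below 0.05, and edgeR and DESeq2 called none. The log2 fold changes lay between -0.22 and 0.35, with a median of 0.12 and 7 above 0. Over all tested members the median was 0.06 with 64.9% above 0, and over all tested genes it was -0.01.

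ZNF331 had 2040 and 2130 normalized counts in the mock controls, against 2478, 2168 and 3516 in clones 1, 2 and 3. Every clone was above both mock controls, but clone 2 only slightly, and the log2 fold change was 0.35 with a standard error of 0.17 (limma-trend, adjusted p = 0.367). ZNF649 had 1461 and 1328 against 1317, 1043 and 1249, all clones below both mock controls, with a log2 fold change of -0.22 (with adjusted p = 0.420). ZNF91 had 917 and 846 against 835, 758 and 965, with overlapping groups and a log2 fold change of -0.05 (limma-trend, adjusted p = 0.865). ZNF274 had 649 and 638 against 710, 667 and 747, a log2 fold change of 0.14 (with adjusted p = 0.571). ZNF611, whose mock controls differed at 108 and 149, had 152, 161 and 165 in the clones and a log2 fold change of 0.33 (with adjusted p = 0.440).

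The proteins that carry out KRAB repression were counted from a list of 20 genes, drawn up in the same way, that covers the TRIM28 complex, the HUSH complex and linked chromatin factors. All 20 were tested, 1 was called lower, against 0.936% of all tested genes, and none was called higher. The median log2 fold change was -0.09 with 5 genes above 0, against a median of -0.03 with 43.9% above 0 over all tested protein-coding genes. The gene that fell was HDAC1, a histone deacetylase of the NuRD and other repressor complexes. HDAC1 had 4321 and 4472 normalized counts in the mock controls, against 3308, 3077 and 3038 in the clones. Its log2 fold change was -0.49 with a standard error of 0.09 (limma-trend, adjusted p = 0.0265). Its adjusted p was 0.0607 without CFIm25-m clone 1, 0.0682 without clone 2, 0.326 without mock control 1, 0.419 without mock control 2 and 0.165 without the mean-variance trend. Its close relative HDAC2 had a log2 fold change of 0.003 (with adjusted p = 0.992). TRIM28, the scaffold that KRAB domains bind, had 20226 and 21894 in the mock controls, against 17229, 20488 and 18947 in the clones. The groups of TRIM28 overlapped, and its log2 fold change was -0.16 with a standard error of 0.11 (limma-trend, adjusted p = 0.542). SETDB1, which methylates H3K9, had -0.12 (adjusted p = 0.593), and the HUSH subunits MPHOSPH8, PPHLN1 and FAM208A had 0.15, -0.07 and 0.12, with adjusted p of at least 0.587 in limma-trend.

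**Figure D3:**
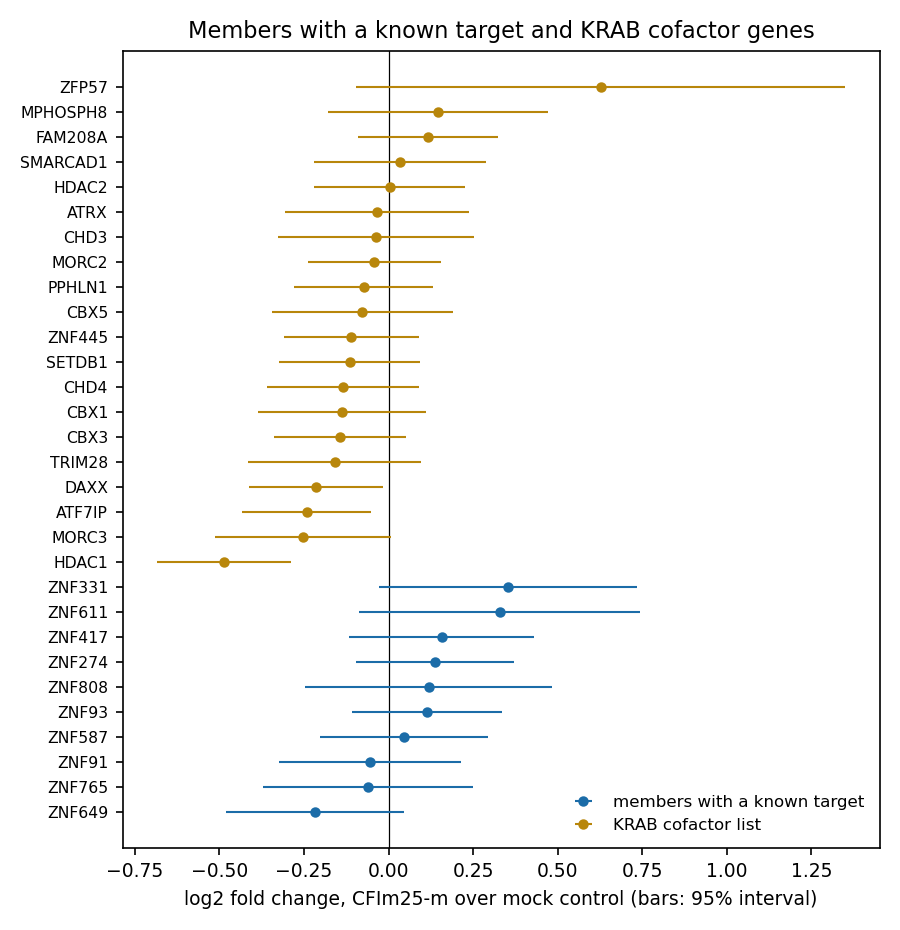
Log2 fold change of CFIm25-m over mock control on the log2(normalized count + 1) scale, with 95% intervals from limma-trend, for 10 members with a known target or imprint (lower block) and 20 KRAB cofactor genes (upper block). HDAC1, at -0.49, has the lowest value of both lists, and the intervals of all 10 members include 0.

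The median member moved up in clones 1 and 3 and down in clone 2. The median log2 fold change of the 225 tested members was 0.06, and 146 of them (64.9%) were above 0, against a median of -0.01 and 48.2% over all tested genes. Against the mean of the mock controls, the median member differed by 0.12 in clone 1, -0.07 in clone 2 and 0.16 in clone 3 on the log2 scale. The mock controls differed from each other by a median of -0.02. Members above the mock mean numbered 161 in clone 1, 85 in clone 2 and 168 in clone 3. The group median was 0.01 without clone 3 and 0.13 without clone 2, so its size depended on which clone was left out.

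Members also differed from clone to clone. The median absolute log2 difference over the members was 0.11 between the mock controls, 0.24 between clones 1 and 2, 0.18 between clones 1 and 3 and 0.27 between clones 2 and 3. Between a clone and a mock control it was between 0.16 and 0.23. Over all tested genes the values were 0.10 for the mock controls, 0.17 for clones 1 and 2, 0.24 for clones 1 and 3, 0.27 for clones 2 and 3, and between 0.19 and 0.29 for a clone and a mock control. No more than 5 members differed by over 2-fold between any pair of clones.

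The ZNF genes on other chromosomes had a median log2 fold change of 0.04, with 59.6% of 193 tested genes above 0 and 6 called, 3 in each direction. Their clone medians were 0.12, -0.03 and 0.05. The other protein-coding genes of chromosome 19 had a median of -0.07, with 37.3% of 916 above 0 and 18 called, of which 7 were higher and 11 lower. Their clone medians were -0.11, -0.01 and -0.10, in the opposite direction to the members in clones 1 and 3. Genes annotated as antisense, sense-intronic or TEC had clone medians of 0.15, 0.05 and 0.42. This class of mostly low-level RNA was thus also highest in clone 3 and lowest in clone 2, and its part in the values of the members was not tested.

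By position, runs of members with no gap above 1000000 bases between starts formed 8 clusters with at least 5 tested members, and 15 tested members lay elsewhere. The median log2 fold change of the clusters lay between -0.02 and 0.10, and the signs for clusters 1 to 4 and for the members elsewhere changed under some alternatives. Cluster 7, counted along the chromosome and running from 51571298 to 53580269, which holds the known transposon binders ZNF649, ZNF611, ZNF765 and ZNF808 as well as ZNF350 and ZNF528, had a median of 0.10. This was the highest of the 8, but cluster 6 or cluster 4 was the highest when clone 1 or either mock control was left out, and cluster 6 with a filter of 50. Its 37 tested members had clone medians of 0.16, -0.01 and 0.30, and 29 of them were above 0, but none was called. Cluster 3, from 19668796 to 24129961, which holds ZNF91 and ZNF93 close to the centromere, had clone medians of 0.11, -0.19 and 0.21. Cluster 8, from 55476332 to 58481230, has 58 tested members including ZNF667 and ZNF835, and its clone medians were 0.07, -0.03 and 0.11. Clone 2 was the lowest clone in every cluster, clone 3 was above 0 in every cluster, and the called genes were in clusters 1 and 8.

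**Figure D4:**
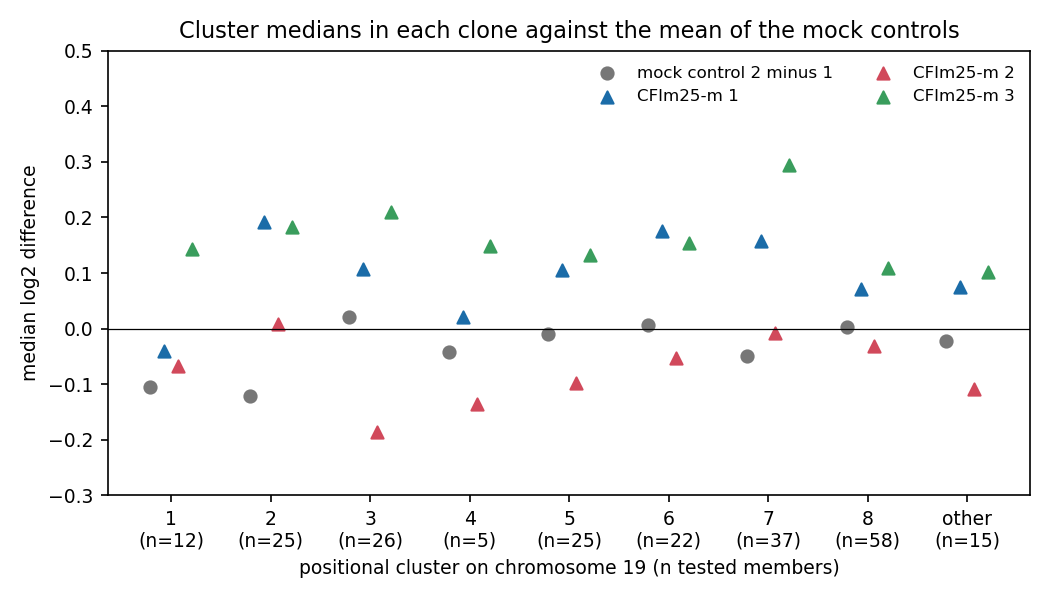
Median log2 difference of the tested members in each positional cluster of chromosome 19, for each CFIm25-m clone against the mean of the mock controls (triangles) and for mock control 2 minus mock control 1 (circles), with the number of tested members below each cluster. Clone 2 is the lowest triangle in every cluster and clone 3 lies above 0 in all of them, reaching 0.30 in cluster 7.

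Many members share their place with an RNA from the opposite strand. Of the 233 members, 108 overlapped a listed gene on the other strand, and 77 overlapped a tested one. The tested partners that are not members numbered 51, and 3 of them were called, all higher. These were ZNF667-AS1, ZNF790-AS1 and AC008969.1, and 3 of 51 is 5.88%, against 1.88% of all tested genes. ZNF790-AS1 had 8.07 and 23.2 normalized counts in the mock controls, against 131, 104 and 132 in the clones. Its log2 fold change was 3.05 with a standard error of 0.38 (limma-trend, adjusted p = 0.00431). ZNF790, across from it, had 108 and 146 against 128, 92.7 and 128, so its groups overlapped, and its log2 fold change was -0.13 (adjusted p = 0.824). AC008969.1, a processed transcript, had 378 and 378 against 667, 632 and 845, with a log2 fold change of 0.90 (limma-trend, adjusted p = 0.0103). ZNF606, which it overlaps, had a log2 fold change of 0.13 (with adjusted p = 0.680).

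Among the RNAs named as antisense or divergent transcripts of a member, a group chosen after values were seen, 13 of 15 were tested, 12 had a log2 fold change above 0 and 2 were called. Over all tested genes 48.2% were above 0 and 1.88% were called, and over the antisense, sense-intronic and TEC genes 66.1% and 0.897%. The others lay between -0.04 and 0.59, including ZNF528-AS1 at 0.41 (limma-trend, adjusted p = 0.176). A start within 1000 bases of a gene start on the opposite strand was found for 45 members. In 23 pairs of a member and a gene that is not a member, both were tested, and 15 pairs had fold changes of the same sign. Of the 4 tested pairs in which both genes are members, 3 had the same sign. In the pair ZNF829 and ZNF568, whose starts are 38 bases apart, the log2 fold changes were 0.37 and 0.51, and neither passed the test. ZNF568 had 119 and 124 normalized counts in the mock controls, against 182, 174 and 166 in the clones (limma-trend, adjusted p = 0.162).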

How the data were processed

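Poly(A+) RNA of 2 mock control and 3 CFIm25-m samples was sequenced. The submitters' processing notes name HISAT2, Subread with featureCounts, DESeq2 and hg38, without versions or a strand setting. The authors deposited normalized counts, a signal in which a sample's reads per gene are divided by its size factor. Their fold changes and p-values were not used. All values were whole multiples of the value of 1 read (100% within 0.01), which gave the totals. The limit of 3 reads covers counting error only.

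Values of the whole table were tested as log2(value + 1) with limma 3.58.1 in R 4.3.3 (lmFit, eBayes with trend) for genes with at least 10 in at least 2 samples, with Benjamini-Hochberg adjustment and a threshold of 0.05. Fold changes of low genes are understated on this scale. Alternatives were edgeR 4.0.16 and DESeq2 1.42.0 on recovered reads, other scalings, filters, pseudocounts and variance models, a replicate block, and leaving out single samples. With 2 samples against 3 there are 10 arrangements, so no permutation test could reach the threshold. In simulated data of this comparison with 18813 genes, of which 200 were changed, limma-trend recovered 89% of 2-fold and 100% of 4-fold changes, and 5.97% of its calls were false. These rates were not split by expression level. They therefore give no recovery or false-call rate for members with few reads, such as ZNF560 and ZNF835.

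The members and all gene lists were chosen with earlier results of these data known. Named genes were all members past the threshold, the 5 largest changes in each direction that missed it with a mean of at least 20, the 5 highest members per kilobase, the 3 nearest to 0 with a mean of at least 1000, and NUDT21 and the called cofactor genes. Others were named after their values were seen. Promoters are from RefSeq (GRCh38.p14). All 233 members overlapped their RefSeq position by symbol.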

Additional observations from a re-analysis of the deposited data

How the results depend on the processing

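The count of 1 lower and 2 higher members was the same under TMM scaling, centring on protein-coding genes, no filter, pseudocounts of 0.5 and 5, and the edgeR quasi-likelihood test. It was 0 lower and 2 higher with a filter of 50, which leaves ZNF560 untested, and 0 lower and 0 higher in limma without the mean-variance trend, which called 46 genes in all and gave 2 lower and 15 higher members an unadjusted p below 0.05. The DESeq2 Wald test called 0 lower and 4 higher. It left the adjusted p of ZNF560 as NA, and 1 lower member had an unadjusted p below 0.05. With 1 sample left out, lower calls ranged from 0 to 1 and higher calls from 1 to 3. A fit with the replicate number as a replicate block called 4 lower and 9 higher members, and 2107 genes in all. The numbers come from different clones, and the deviations of samples with the same number had correlations of 0.007 and 0.018. With 2 mock controls, whose deviations mirror each other, these values cannot show whether samples with the same number share a batch. Replicate number 3 occurs in CFIm25-m alone, so the block fit takes its fold changes from samples 1 and 2 of each group. It is therefore not independent of the fit without clone 3. The cause of the other differences was not tested.

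The median of all members lay between 0.01 and 0.13 with 1 sample left out, and was 0.01 with the replicate block. Medians of clusters also turned sign. Without CFIm25-m clone 3, and likewise with the replicate block, cluster 3 was at -0.034, cluster 4 at -0.021 and the members elsewhere at -0.034. Without mock control 2 cluster 2 was at -0.011. Cluster 1, at -0.018, was at 0.011 in DESeq2, 0.024 in edgeR, 0.025 with a filter of 50, 0.021 without clone 1, 0.085 without clone 2 and 0.091 without mock control 1. The highest cluster median was that of cluster 4 without mock control 1 (0.163, with 0.142 for cluster 7). It was that of cluster 6 without mock control 2 (0.155, with 0.083), with a filter of 50 (0.152, with 0.099) and without clone 1 (0.077, with 0.073). Named members close to 0 turned sign too. ZNF121 was at -0.032 with the replicate block. ZNF260 was at 0.0070 in DESeq2, 0.0077 with TMM scaling, 0.0062 with centring, 0.016 in edgeR and 0.0038 with the replicate block. With 1 sample left out, the log2 fold change ranged from -0.032 to 0.13 for ZNF121, -0.10 to 0.022 for ZNF146, -0.079 to 0.054 for ZNF260, -0.0072 to 0.083 for ZNF444, -0.075 to 0.014 for ZNF714 and -0.026 to 0.14 for ZNF787. Of 341 alternative values over 23 named genes, 305 kept direction and side of the threshold, 15 turned sign, 14 lost their call and 7 gained one. Depth limits ZNF560, ZNF835 and the 54 members with a mean under 100.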
